A study of Mus musculus with 2 samples.

Results

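The Sox genes encode transcription factors that share the HMG box, the DNA-binding domain of the testis-determining factor Sry. The 10 genes described here, Sox1, Sox2, Sox3, Sox4, Sox11, Sox12, Sox13, Sox15, Sox17 and Sox21, were taken by symbol from a table of 28592 genes, and each matched 1 row. The RNA came from mouse embryonic stem (ES) cells of E14TG2a, an established male line that lacks functional Hprt. The cells were kept in the ground state in 2i/LIF, a medium that combines inhibitors of MEK and GSK3 with leukaemia inhibitory factor. Both libraries, replicates 1 and 2, belong to this 1 group and carry no other genotype or treatment, so no conditions could be compared and no test was made. Levels are FPKM (fragments per kilobase, relative to all mapped fragments of the library), which are scaled by gene length and can be set against each other between genes.

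Sox proteins bind a short AT-rich motif in the minor groove, bend the DNA and usually act together with a partner factor. In pluripotent cells Sox2 pairs with the POU factor Pou5f1 (Oct4) on a composite element and is required to keep the cells undifferentiated. The family is divided by HMG box sequence into groups. SoxB1 (Sox1, Sox2, Sox3) acts in pluripotent and neural progenitor cells, SoxB2 (Sox14, Sox21) counteracts it in neurogenesis, SoxC (Sox4, Sox11, Sox12) acts in differentiating progenitors, SoxD includes Sox13, SoxF includes the endoderm factor Sox17, and Sox15 is the only SoxG gene.

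The 250 bases before the RefSeq start site are given for 4 members that differ in level and in CpG content (RefSeq, GRCm38.p6, each 5′ to 3′ on the strand of the gene). Sox2 is the most abundant member, Sox15 is the CpG-poor member, Sox12 carries a POU octamer, and Sox11 is CpG-rich and below the detection limit of 1 FPKM. Capitals mark CpG dinucleotides. The windows are chr3:34649745-34649994 on the plus strand for Sox2, chr11:69654787-69655036 on the plus strand for Sox15, chr2:152398047-152398296 on the minus strand for Sox12 and chr12:27342719-27342968 on the minus strand for Sox11.
Sox2: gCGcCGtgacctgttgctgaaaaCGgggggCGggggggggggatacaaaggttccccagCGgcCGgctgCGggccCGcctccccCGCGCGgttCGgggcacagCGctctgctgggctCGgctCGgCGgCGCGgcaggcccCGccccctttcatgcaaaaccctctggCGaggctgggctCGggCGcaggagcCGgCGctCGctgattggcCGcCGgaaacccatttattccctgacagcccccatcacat
Sox15: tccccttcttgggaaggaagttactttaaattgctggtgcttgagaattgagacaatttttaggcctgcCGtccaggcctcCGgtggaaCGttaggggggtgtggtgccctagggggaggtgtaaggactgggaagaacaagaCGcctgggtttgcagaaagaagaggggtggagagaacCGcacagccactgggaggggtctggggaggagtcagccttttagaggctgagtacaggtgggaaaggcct
Sox12: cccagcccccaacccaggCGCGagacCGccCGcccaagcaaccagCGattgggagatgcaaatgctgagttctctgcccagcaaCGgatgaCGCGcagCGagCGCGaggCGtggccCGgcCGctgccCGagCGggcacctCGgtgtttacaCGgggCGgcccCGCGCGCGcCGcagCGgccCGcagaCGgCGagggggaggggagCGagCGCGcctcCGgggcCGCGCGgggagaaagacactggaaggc
Sox11: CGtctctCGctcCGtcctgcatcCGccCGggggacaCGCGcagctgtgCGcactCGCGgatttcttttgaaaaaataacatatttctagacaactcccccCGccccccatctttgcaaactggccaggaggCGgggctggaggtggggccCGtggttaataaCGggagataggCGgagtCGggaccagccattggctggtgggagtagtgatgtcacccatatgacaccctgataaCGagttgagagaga

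The labelled cell state was checked on marker genes. A gene is called detected here where both libraries give it 1 FPKM or more. All 7 pluripotency markers were detected, and their median was 267 in replicate 1 and 269 in replicate 2. Of 8 fibroblast markers 2 were detected, Vim (261 in replicate 1 and 279 in replicate 2) and Sparc (50.7 and 55.9). The summed FPKM of the fibroblast list was 312 and 338 in replicates 1 and 2, nearly all of it from Vim and Sparc. Each of the rest stayed under 1 FPKM in both replicates. The level was higher in replicate 2 for 7 of the 8, with Dcn at 0 in replicate 1 and Lum at 0 in replicate 2. Among all 28592 genes, 10541 were higher in replicate 2 and 8009 were listed at 0 in both. FPKM over all genes summed to 946498 and 928174, and the number of reads is not known. No label says that the replicates were grown separately, and their spread may therefore be only technical. In such bulk RNA, few cells with a high level and many cells with a low level cannot be told apart.

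Sox2 dominated the family. It stood at 175 FPKM in replicate 1 and 162 in replicate 2 (168 ± 9.38, SD, n = 2), rank 639 of 28592 genes. The gene (ENSMUSG00000074637.7) lies on chromosome 3 at 34649995 to 34652461. Of the summed FPKM of the 20 mouse Sox genes, Sox2 held 92.9% in replicate 1 and 92.1% in replicate 2. The other 19 genes together came to 13.4 and 13.9. No Sox gene lay between 4.14, the highest single value of Sox15, and 162, the lower value of Sox2.

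The next most abundant member was Sox15, with 3.02 in replicate 1 and 4.14 in replicate 2 (3.58 ± 0.792). Sox15 is known for expression in ES cells and for binding composite elements together with Pou5f1. Sox13, a SoxD gene known from T-cell development, had 3.84 and 3.22 (3.53 ± 0.440). These 2 genes overlapped: Sox13 was the higher of them in replicate 1 and Sox15 in replicate 2. Sox2 exceeded Sox15 by 57.9-fold in replicate 1 and 39.1-fold in replicate 2, and exceeded Sox13 by 45.5-fold and 50.2-fold.

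Among the other SoxB genes, Sox21 was the only one detected. It is a SoxB2 repressor that binds the same motif as Sox2, and it had 2.46 and 2.29 (2.37 ± 0.121). The SoxB1 relatives that can stand in for Sox2 in several tissues were not detected, at rank 15182 of the 28592 genes for Sox1 and 16953 for Sox3. Sox1, an early marker of the neural plate, had 0.118 and 0.174 (0.146 ± 0.0394). Sox3, an X-linked gene of neural progenitors, had 0.0559 and 0.0558. Sox2 was 1486-fold and 932-fold above Sox1 in replicates 1 and 2, and 3132-fold and 2899-fold above Sox3. Neither Sox1 nor Sox3 came near the detection limit in either library.

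The 3 SoxC genes, which are known for roles in neuronal and mesenchymal differentiation, differed in level. Sox12 was the highest and the only one detected, with 1.90 and 1.98 (1.94 ± 0.0572). Sox4 fell just under the limit in both libraries, with 0.984 and 0.988 (0.986 ± 0.00231). Sox11 had 0.237 and 0.335 (0.286 ± 0.0696). Within this group the order of Sox12, Sox4 and Sox11 was the same in both replicates and the replicate ranges did not overlap.

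Sox17, a factor of primitive and definitive endoderm, was at 0.153 and 0.164 (0.158 ± 0.00801). Of 10 endoderm genes 1 was detected, the laminin gene Lamb1, at 6.59 and 6.87. The chemokine receptor gene Cxcr4 had 0.936 and 1.24, the nuclear receptor gene Hnf4a 0.234 and 0.552, and the collagen gene Col4a1 0.199 and 0.396. The lowest were the pioneer factor gene Foxa2, at 0 and 0.0393, and Gata6, a determinant of primitive endoderm, at 0 and 0.0173. Of the 10 endoderm genes 7 were higher in replicate 2, among them Dab2, with 0.0426 and 0.406. The same held for 10541 of all 28592 genes, of which 8009 were listed at 0 in both.

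**Figure D1:**
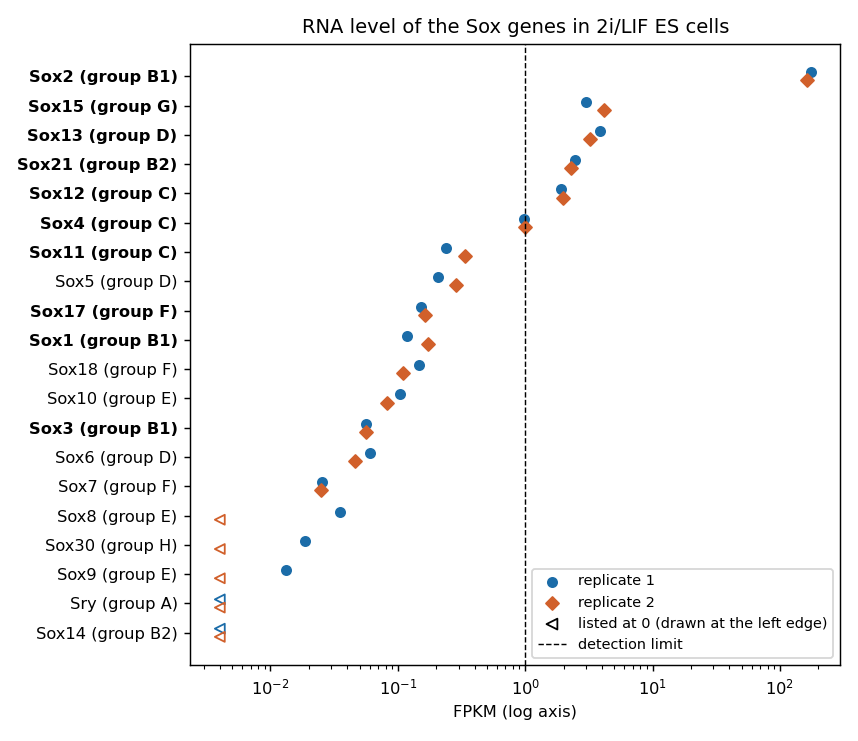
FPKM of the 20 mouse Sox genes (log axis) in replicate 1 (circles) and replicate 2 (diamonds), ordered by mean, with the 10 members in bold, the Sox group in brackets and triangles for values listed at 0. Sox2, at 175 and 162, stands apart from Sox15, Sox13, Sox21 and Sox12, which lie between 1.90 and 4.14, and the dashed line marks the detection limit of 1.

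In all, 5 of the 10 members were detected, Sox2, Sox15, Sox13, Sox21 and Sox12. The share of all genes detected was 39.4%, and that of protein-coding genes 50.5%, so the members' count of 5 of 10 was close to that of coding genes. Their median of 1.44 in replicate 1 and 1.49 in replicate 2 was likewise near the coding medians of 1.22 and 1.21. None of the other 10 Sox genes was detected. Sox5 was the highest of these, at 0.206 and 0.285, followed by Sox18 at 0.147 and 0.110 and Sox10 at 0.104 and 0.0827. Sox6 had 0.0609 and 0.0460, and Sox7 had 0.0252 and 0.0251. Sox8 (0.0349), Sox30 (0.0186) and Sox9 (0.0132) had a value in replicate 1 and were listed at 0 in replicate 2. Sox14 and Sry were listed at 0 in both.

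By group, SoxB1 summed to 175 and 162 FPKM, nearly all of it Sox2. SoxD came to 4.11 and 3.55, SoxG to 3.02 and 4.14, SoxC to 3.12 and 3.31 and SoxB2 to 2.46 and 2.29. The order of SoxD, SoxG and SoxC differed between the replicates. SoxF (0.325 and 0.299) and SoxE (0.152 and 0.0827), whose genes act in endothelium, endoderm, neural crest and gonad, had no detected gene.

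The order of the members was read against the spread between replicates. Neighbours in the order were called separated where their replicate ranges did not overlap and their mean log2 difference exceeded a spread. This spread was the mean of the SDs found for both genes of the pair. Each SD was that of the log2 ratio between replicates over genes of like level (a mean within 2-fold of that of the gene). Genes listed at 0 in either replicate were left out of it. Of the 9 neighbouring pairs 5 were separated. These were Sox2 over Sox15 (log2 difference 5.57), Sox13 over Sox21 (0.57), Sox12 over Sox4 (0.98), Sox4 over Sox11 (1.81) and Sox1 over Sox3 (1.36). For Sox1 over Sox3 the margin was narrow, 1.36 against a spread of 1.27, at levels that may rest on few fragments. The SD was 1.18 at the level of Sox1 and 1.35 at that of Sox3. Sox15 and Sox13 (0.01), and Sox17 and Sox1 (0.15), had overlapping ranges and changed order between the libraries. For Sox21 over Sox12 (0.29 against a spread of 0.38) and Sox11 over Sox17 (0.83 against 1.09), the ranges were apart but the difference was within that spread.

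No member differed by 1.5-fold or more between the replicates. Of the 17972 genes above 0 in both, 18.6% did, but these were not matched to the members in level. With 10 members, a count of 0 is not far from that share. The log2 ratio of replicate 2 to replicate 1 was -0.11 for Sox2, against an SD of 0.09 over 932 genes of like level. For Sox15 it was 0.46, against 0.30 over 3146 genes. The other 8 members stayed within 1 such SD. The log2 ratios of 0.56 for Sox1 and 0.50 for Sox11 belong to levels where that SD was 1.18 and 0.995. Of the 10 members 6 were higher in replicate 2, Sox15, Sox12, Sox4, Sox11, Sox17 and Sox1. The same held for 8428 of the 20719 protein-coding genes, of which 3961 were listed at 0 in both replicates. Of the 6 members only Sox15 differed by more than 1 SD of genes of like level. The fibroblast collagen genes were higher in replicate 2, Col1a1 with 0.0136 and 0.552, Col1a2 with 0.0101 and 0.917 and Col3a1 with 0.0481 and 0.809. Their part in the Sox values was not tested.

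**Figure D2:**
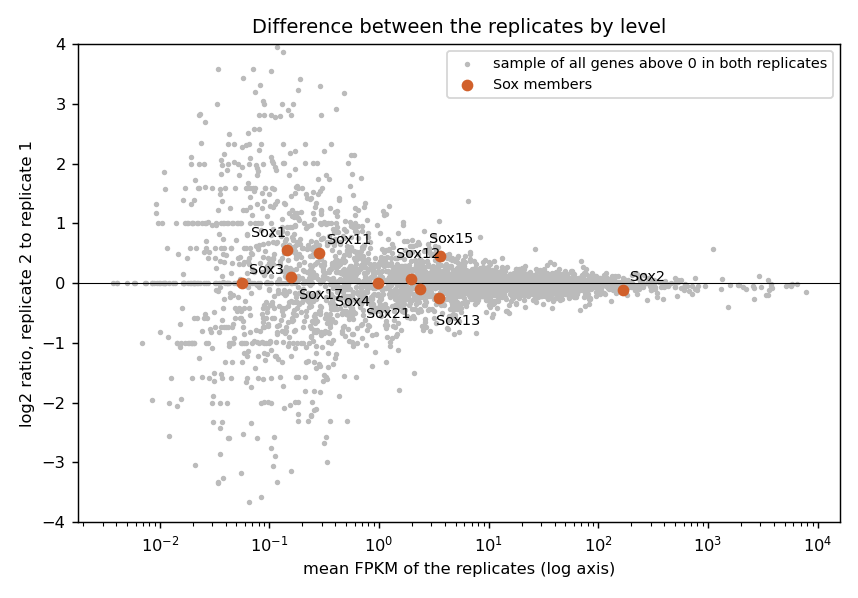
Log2 ratio of replicate 2 to replicate 1 against mean FPKM (log axis) for a sample of the genes above 0 in both replicates (grey, not drawn beyond 4 log2 units) and for the 10 Sox members (orange). The grey cloud widens towards low levels, where Sox1 (0.56) and Sox11 (0.50) lie, and narrows towards Sox2 (-0.11), while Sox15 (0.46) lies above 0 at a mean of 3.58.

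At the lowest levels some ratios between replicates lay close to ratios of small whole numbers. The ratio between replicates was 0.999 for Sox3 and 0.998 for Sox7, 0.749 for Sox18 and 0.799 for Sox10, each within 0.01 log2 units of a ratio of small whole numbers (1 to 1, 1 to 1, 3 to 4 and 4 to 5). This held for 4 of the 7 Sox genes with a mean under 0.2 and a value above 0 in both replicates. Among all 3446 such genes it held for 57.7%, against 22.0% of evenly spaced log2 ratios between -1 and 1, with whole numbers up to 8. The ratios of the 3446 genes were not limited to that range, so the evenly spaced ratios are not a matched baseline. The close match of the Sox3 replicates does not show a high precision.

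The partners of Sox2 were then examined. The POU factor Pou5f1 had 1005 and 947 FPKM, so that Sox2 amounted to 17.4% and 17.1% of its level, and to 65.5% and 60.1% of that of Nanog. Of 13 POU genes 4 were detected. Besides Pou5f1 they were Pou2f1, the ubiquitous Oct1 factor (8.49 and 8.32), Pou2f3 (5.27 and 5.07) and Pou6f1 (1.69 and 1.66). The median of the POU list was 0.139 and 0.112. Both families thus had 1 gene far above the rest, Pou5f1 in the POU list and Sox2 in the Sox list.

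Genes known for a composite POU and Sox element were all detected, 7 of 7, with a median of 223 in replicate 1 and 225 in replicate 2. The medians were 1.22 and 1.21 over protein-coding genes, and 0.221 and 0.234 over all genes. After Pou5f1 the highest were the secreted phosphoprotein gene Spp1 (441 and 425), Nanog (267 and 269) and Fbxo15, which encodes an F-box protein (223 and 225). The lowest by mean were the Nodal antagonist Lefty1 (89.8 and 66.8) and the chromatin-associated factor Utf1 (4.46 and 3.69). Pou5f1 is also in the POU list, and both Pou5f1 and Nanog are also among the pluripotency markers. Fgf4, one of the first genes in which the joint element was described, had 81.55 and 79.03, below Lefty1 in replicate 1 and above it in replicate 2.

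The TCF/LEF factors carry an HMG box of the same type and act in the Wnt pathway, which the GSK3 inhibitor of 2i/LIF activates. Tcf7 was the only one of 4 that was detected, at 4.28 and 3.75, which is close to the level of Sox15 and Sox13. Tcf7l1, a repressor of the pluripotency network, had 0.861 and 1.36. Lef1 had 0.625 and 0.982, and Tcf7l2 had 0.669 and 0.557.

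Enzymes known to modify SOX2 protein were detected in 7 of 8 cases, with a median of 18.03 and 17.90. They were led by the ubiquitin-conjugating enzyme Ube2s (506 and 461) and the poly-ADP-ribose polymerase Parp1 (242 and 213), followed by the deacetylase Sirt1 (27.4 and 28.1) and the ubiquitin ligase Wwp2 (24.1 and 24.4). The acetyltransferase Ep300 had 7.17 and 7.19. The methyltransferase Setd7 was the only one not detected, at 0.486 and 0.380. The 8 import, export and calmodulin genes that serve HMG-box proteins were all detected, with a median of 189 and 198. Among them Calm2 had 404 and 412, Kpna2 had 315 and 326 and Kpnb1 had 193 and 204, and Ipo5 (112 and 115) and Kpna4 (17.0 and 18.6) were the lowest.

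Neural progenitor genes, among which SoxB1 factors and Sox21 act later in development, were detected in 3 of 10 cases. These were the intermediate filament gene Nes (9.40 and 9.08), Zic2 (5.595 and 5.774) and Otx2 (3.66 and 3.81), of which Zic2 and Otx2 also act in the epiblast. The eye and forebrain factor Pax6 had 0.207 and 0.0612. Fabp7 was listed at 0 in both replicates, and the list median was 0.0558 and 0.0250.

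**Figure D3:**
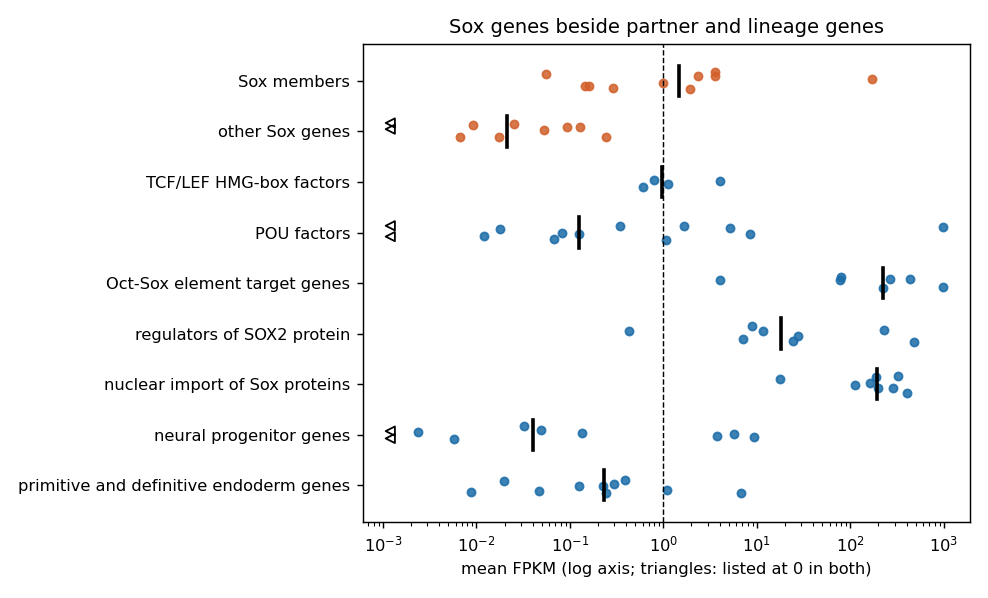
Mean FPKM of the replicates (log axis) for the Sox genes (orange) and for 7 lists of partner and lineage genes (blue), with a bar at the median of each list and triangles for genes listed at 0 in both replicates. Sox2 and Pou5f1 lie to the right of the other genes of their families, and the genes with a composite element lie between 4.08 and 976.

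Promoter entries were found for 8 of the 10 members, and Sox3 and Sox17 had none. In the 250 bases before the start the CpG ratio, the observed number of CpG dinucleotides over that expected from the C and G content, was at least 0.75 in 6 of these 8. The same held for 31.4% of the 13630 coding genes with a single promoter entry. By detection it held for 51.8% of 6659 detected and 11.8% of 6971 undetected coding genes, and for 3 of the 5 detected members. All 3 undetected members with an entry were in the CpG-rich class, Sox4 at 0.80, Sox11 at 0.81 and Sox1 at 0.99, and so was Sox2 at 0.83. Members with like ratios thus differed widely in level. Sox15 had a ratio of 0.30, with 5 CpG in the window printed above against 27 for Sox2, 35 for Sox12 and 17 for Sox11. A ratio that low or lower was found at 7.19% of the detected coding genes. Sox21 was at 0.64.

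**Figure D4:**
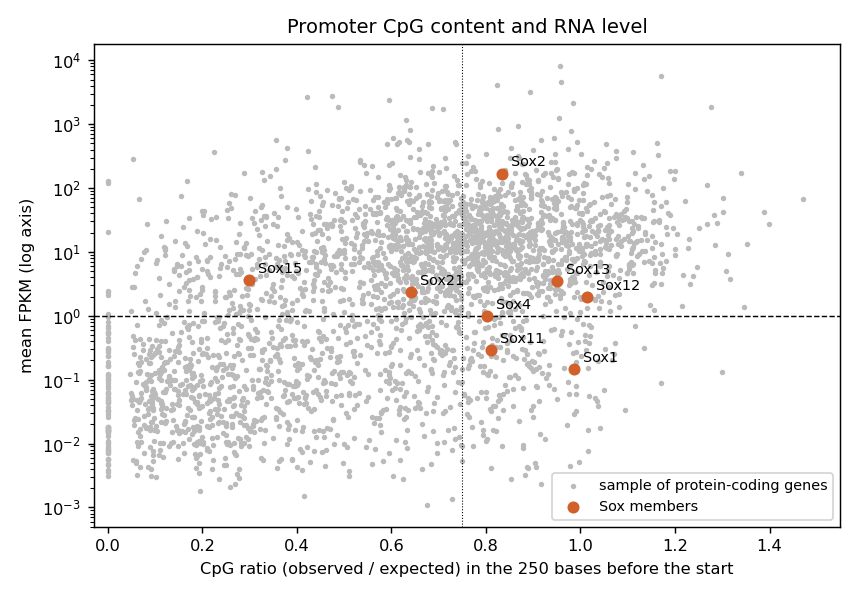
Mean FPKM (log axis) against the CpG ratio of the 250 bases before the start, for a sample of protein-coding genes with a level above 0 (grey) and the 8 Sox members with a promoter entry (orange); the lines mark 1 FPKM and a ratio of 0.75. Sox15 is the member furthest to the left (0.30), and Sox1 and Sox11 are CpG-rich but lie below the detection limit.

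The same windows were searched on both strands for short motifs, and a match is given as letters only. The POU octamer ATGCAAAT was found in 1 member, Sox12, 195 to 188 bases before the start, and in 1.601% of 32851 promoter windows. The Sox hexamer ACAAAG was found in 1 member, Sox2, 206 to 201 bases before the start, and in 16.5% of windows. The Sox heptamer CATTGTT was in none of the members and in 3.29% of windows. The GC box GGGCGG was found in 4 members, Sox1, Sox2, Sox11 and Sox12 (32.7% of windows), and CCAAT in these and in Sox4 (33.8%). The TATA box TATAAA was in none of the 8 (12.4%). No hits of different motifs overlapped in the members.

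Genes that overlap or adjoin the members were set beside them (spans from RefSeq, GRCm38.p6). Sox2 lies within the span of the long non-coding RNA Sox2ot, which had 1.19 and 1.34, so Sox2 was 147-fold and 121-fold higher. Sox1 likewise lies within Sox1ot, which is on its strand and had 0.0374 and 0.0213. All 4781 bases of the Sox4 span lie within the lncRNA gene Gm46405 on the same strand, whose level was not analysed here, so its part in the level of Sox4 was not tested. The nearest other measured genes on either side of Sox2, Gm42205 and Gm3143, lie 47.0 and 47.2 kb away. Gm42205 was listed at 0 in both replicates and Gm3143 had 0.0556 and 0.0558.

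Sox15 (ENSMUSG00000041287.5, chromosome 11, 69655037 to 69656727) lies close to highly expressed genes. Its 3′ end overlaps by 31 bases with Mpdu1, a gene of dolichol-linked glycan synthesis on the opposite strand, at 114 and 109 FPKM. On its own strand Fxr2, a paralogue of the fragile X gene, ends 1.74 kb before it and had 70.2 and 68.2. Sox15 lay far below both neighbours. Sox21 overlaps by 799 bases with the lncRNA gene Gm4675 on the opposite strand, which had 0.921 and 0.686. Whether reads were assigned by strand is not given in the sources used here, and the part of these neighbours in the levels of Sox15 and Sox21 was not tested.

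The remaining members had nearby genes of varied level. Etnk2, an ethanolamine kinase gene 1.98 kb from Sox13, had 1.83 and 1.48, and Snrpe, on its other side at 179 kb, had 766 and 791. Beside Sox12, Zcchc3 had 6.62 and 6.16 and Nrsn2 had 0 and 0.0208. Near Sox21, Gpr180 had 7.52 and 6.30 and Gm9376 was listed at 0. The measured neighbours of Sox17 (Rp1 and Gm37323) were listed at 0 in both replicates, as were those of Sox1 outside Sox1ot (A230072I06Rik and Spaca7). Those of Sox3 were Gm14661 (0.0141 and 0.0281) and Gm14664 (0 in both), and those of Sox4 were 2610307P16Rik (0.313 and 0.167) and A330102I10Rik (0.164 and 0.323). Sox11 had Gm9866 (0 in both) on one side and Dcdc2c (0.932 and 0.889), 1095 kb away, on the other. Beyond Mpdu1, Cd68 had 8.79 and 6.88.

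Of 9 further transcripts named for a Sox locus, Sox2ot was the only one detected. Sox5os1 had 0.0189 and 0.0377, and 6 were listed at 0 in both replicates.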

How the data were processed

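Ribosomal-RNA-depleted, strand-specific libraries of total RNA from 2 replicates of 1 group were sequenced, per the labels' protocols. The authors deposited FPKM per gene and replicate. TopHat2, Cufflinks and CASAVA, with the builds mm10 and GRCm38, are named in the submitters' processing notes. Which versions, annotation, strand setting, row filters and library scaling applied is not given in the sources used here. Cufflinks may list 0 where its estimate failed, so such genes are described as listed at 0. Depth in reads is unknown, so no counting interval is given.

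Columns were assigned by their names, which equal the sample descriptions. Of 28592 identifiers, 28256 were paired with a symbol, ignoring their version. Gene types (20719 protein-coding), spans and promoters came from RefSeq GRCm38.p6 by symbol or an unambiguous synonym. The RefSeq promoter table has 32851 rows. It gives 250 bases before and 50 after each start, and the part before the start was used. Detected means an FPKM of at least 1 in both replicates. Calculations used Python 3.11.15 and pandas 2.3.3, and the estimate of replicate spread was tested on simulated data. HMG box sequences were not analysed here.

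The members, lists and rules were chosen with earlier results of these data known. Named genes were all Sox genes, detected POU and TCF/LEF genes, the 4 highest and 2 lowest of each other list, and genes overlapping or nearest to a member; 2 genes that this rule names are not reported here. Some further list members and the transcripts named for a Sox locus were named after their values were seen. With 1 group no test was planned and no gene could be named for a like pattern. The alternatives were other detection limits and pseudocounts, rescaling to TPM, centring of the replicates, other sets of genes for ranking, and leaving out each replicate.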

Additional observations from a re-analysis of the deposited data

How the results depend on the processing

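Most values moved by less than the spread between replicates. The exceptions came with TPM, the limits of 0.1 and 5, the pseudocount of 0.01 and the other sets of genes for ranking. Rescaling to TPM raised Sox2 from 168 to 179.7 and the median of the members from 1.46 to 1.56, both by more than that spread. It also brought Sox4 over the limit of 1 (1.04 and 1.06), so that 6 members were detected in place of 5. The number detected depended on the limit, with 9 members at 0.1, 6 at 0.5 and 1, Sox2, at 5. The log2 difference between Sox2 and Sox15, on the FPKM + 1 scale, was 5.22, and 5.57 with a pseudocount of 0.01. It was 4.98 without replicate 1 and 5.18 without replicate 2, where Sox13 was the next member. The median percentile of the members was 61.9 among all genes, 50.9 among protein-coding genes, and, for the detected members, 19.8 among detected genes. The median log2 ratio between replicates over the members was 0.01 (FPKM + 1) and at most 0.03 with the other pseudocounts. Levels below about 0.2 may rest on few fragments, which could not be counted because depth is not known. The order of Sox17, Sox1, Sox3 and the other Sox genes at such levels is therefore uncertain. No paired analysis was possible because the series has 1 group.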
